A study of Mus musculus with 6 samples.

Results

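Expression of 10 cytokine genes was examined in the aging mouse cerebral cortex: Il1a, Il1b, Il18 and Il33 of the interleukin-1 family, Il6, Tnf, the growth factor ligands Csf1 and Il34, and the transforming growth factors Tgfb1 and Tgfb2. They were chosen by symbol as inflammatory cytokines and cytokines that act on microglia, and all 10 were found among the 55421 genes of the deposited RNA-seq tables and among the 32905 genes tested. The libraries came from the cortex of male wild type C57BL/6J mice, 3 of 6 months (young adults; mice 10, 11 and 17) and 3 of 24 months (old adults; mice 2, 4 and 5), each mouse giving 1 library made from 10 ng of total RNA. All mice were untreated, apart from isoflurane anesthesia before cervical dislocation, and mice with visible tumors had been left out of the study. Values are given below in the order of mice 10, 11, 17 at 6 months and mice 2, 4, 5 at 24 months.

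Cytokines are secreted proteins through which immune and resident cells signal to each other. Il1b and Il18 are made as inactive precursors that the protease caspase-1 cuts within inflammasomes, whereas Il33 is held in the nucleus and is released by damaged cells. Tnf and Il6 are produced by activated microglia and macrophages. Microglia, the resident macrophages of the brain, depend on the receptor Csf1r, whose ligands are Csf1, made largely by glia, and Il34, made largely by neurons. Tgfb1 and Tgfb2 are kept latent on carrier proteins until released, and Tgfb1 maintains the microglial state.

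Promoter sequences are shown for 3 members because they carry the letters of the best known control elements of inflammatory genes, or lack them. RefSeq windows of 250 bases before to 50 bases after the start (build GRCm38.p6) were held for 9 of the 10 members. Both strands were searched for the NF-kappaB letters GGANTTTCC, the AP-1 letters TGANTCA and the TATA letters TATAAA, and these did not overlap each other in the members. The 250 bases before the start are printed from 5′ to 3′ on the strand of the gene, with matches in capitals.
Il6, chr5:30012864-30013113, plus strand: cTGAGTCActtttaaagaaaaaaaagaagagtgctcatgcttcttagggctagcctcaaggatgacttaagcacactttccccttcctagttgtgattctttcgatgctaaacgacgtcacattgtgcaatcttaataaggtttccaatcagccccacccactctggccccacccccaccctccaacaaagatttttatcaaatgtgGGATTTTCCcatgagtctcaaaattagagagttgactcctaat
Csf1, chr3:107760470-107760719, minus strand: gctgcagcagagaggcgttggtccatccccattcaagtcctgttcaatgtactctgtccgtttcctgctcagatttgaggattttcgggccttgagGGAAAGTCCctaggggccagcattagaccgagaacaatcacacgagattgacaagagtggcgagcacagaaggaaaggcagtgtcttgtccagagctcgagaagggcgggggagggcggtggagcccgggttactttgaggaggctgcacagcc
Il1b, chr2:129371140-129371389, minus strand: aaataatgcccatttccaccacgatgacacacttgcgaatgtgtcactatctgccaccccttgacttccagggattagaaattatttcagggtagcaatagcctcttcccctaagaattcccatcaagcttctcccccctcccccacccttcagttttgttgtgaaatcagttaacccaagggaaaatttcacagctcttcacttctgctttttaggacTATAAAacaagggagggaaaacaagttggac
Il6 held an NF-kappaB match whose first base lay 43 bases before the start and an AP-1 match 249 bases before it. Csf1 held an NF-kappaB match on the opposite strand, 154 bases before the start. Il1b held neither, and its capitals mark a TATA match that began 31 bases before the start. The NF-kappaB letters were in 2 of 9 members against 1.25% of 32851 windows, the AP-1 letters in 2 members (Il1a and Il6) against 7.81%, and the TATA letters in 6 members against 13.6%. In 5 of 9 members (Il1a, Il1b, Il33, Tgfb2 and Tnf) TATAAA began 20 to 40 bases before a start on the strand of the gene, as in 1.99% of all windows, a span chosen after the matches were seen. Il33 has 2 windows, and this match was in 1 of them. A match of letters is a description of the sequence and not evidence of a bound site.

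The members fell into 3 tiers of expression. Il33, Il34 and Il18 were the highest, with means over the 6 libraries of 130.3, 90.8 and 76.3 TPM (a level scaled by exonic length and sequencing depth), which placed them among the top 2.54%, 3.75% and 4.44% of all genes. Csf1 (18.2 TPM) and Tgfb2 (9.78 TPM) followed. Tgfb1, Il1a and Il1b lay near 1 TPM (1.51, 1.29 and 0.934), and Il6 (0.572 TPM) and Tnf (0.124 TPM) were lowest. At 6 months the ranges of Il33 and Il34 overlapped, as did those of Tgfb1, Il1b and Il1a in turn and of Il6 and Tnf, whereas the other neighbours in this order did not overlap. At 24 months Il33 lay apart above Il34, the ranges of Il34 and Il18 overlapped, and Tgfb1, Il1a, Il6 and Il1b overlapped each with the next.

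**Figure D1:**
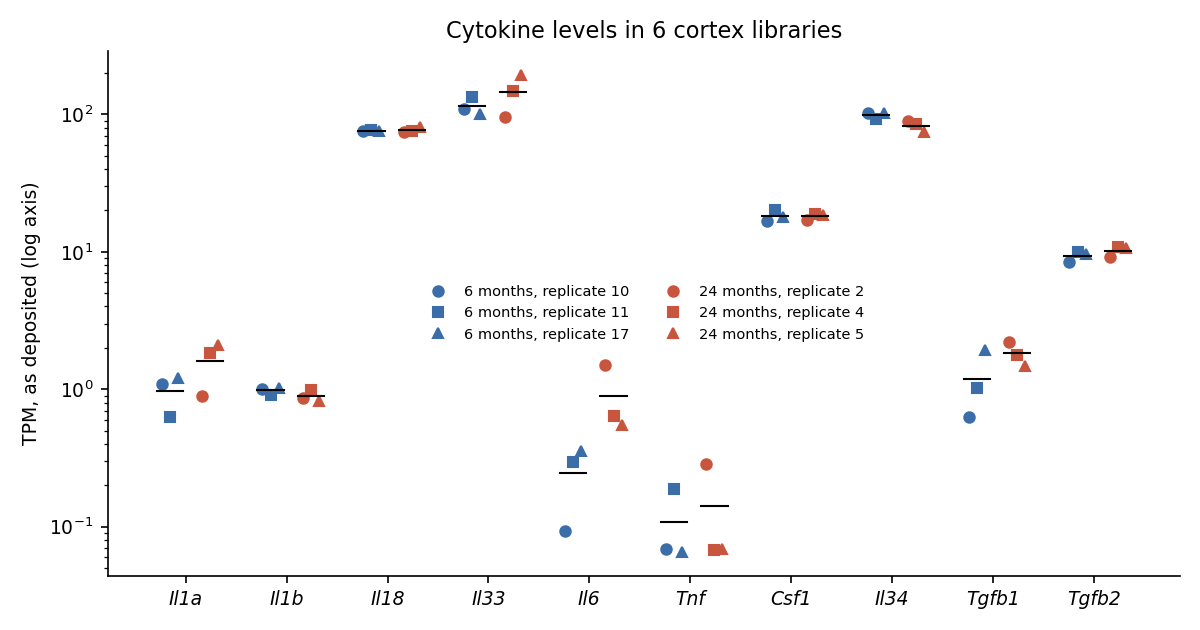
TPM of each cytokine in each of the 6 libraries on a log axis, 6 months in blue and 24 months in red, with a symbol for each mouse and a bar at the mean of 3 mice. Il33, Il34 and Il18 lie near 100 TPM at both ages, and the ages do not overlap for Il6 and Il34.

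The depth was even, with 29495379 to 36494240 counts per library in the 6 libraries, but a count was seen for 33974 to 35651 genes at 6 months and for 40208 to 43561 genes at 24 months. The summed level of 2065 sensory receptor genes (olfactory, vomeronasal, taste and trace amine receptors), which cortex is not known to use, was 0.0198, 0.0222 and 0.0229 CPM (counts scaled by depth) per exonic kilobase at 6 months and 0.0925, 0.0756 and 0.0542 at 24 months. Mouse 2 had the highest of these values and also the lowest summed level of oligodendrocyte markers, 295 CPM against 422 to 739 CPM in the other 5 libraries. The 10 microglia markers, all above 0 in every library, summed to 507 to 524 CPM at 6 months and 588 to 660 CPM at 24 months with library totals. With TMM scaling their mean log2 CPM overlapped between the ages, at 5.01, 4.99 and 5.07 against 5.20, 5.05 and 5.15. In bulk tissue, fewer cells of a type and less RNA per cell cannot be told apart.

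Between 24 and 6 months, 2 of the 10 members passed a false discovery rate (FDR) of 10%, Il6 higher and Il34 lower. This share has to be read against 18.4% of all genes tested (10.0% higher and 8.33% lower), so it lies near the background. When mouse 2, 4, 10 or 11 was left out, 0 members passed (2 or 3 at an unadjusted p under 0.05), and 0 genes of the whole table passed without mouse 4 or 10. The median log2 fold change of the members was 0.11, beside 0.15 over all genes tested. At the 1% FDR used in the study, 0 members passed in edgeR's quasi-likelihood test, its likelihood ratio test or the Wald test of DESeq2. At that level 0 of 32905 genes passed the quasi-likelihood test, while at an unadjusted p under 0.05 there were 2 members, beside 30.7% of all genes. Normalised CPM did not overlap between the ages for 4 members, 1 above (Il6) and 3 below (Il34, Il18 and Il1b), beside 36.3% of all genes (20.0% above and 16.2% below). Il18 and Il1b overlapped in the deposited TPM values, and under scaling by library totals Il18 lay above instead of below.

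**Figure D2:**
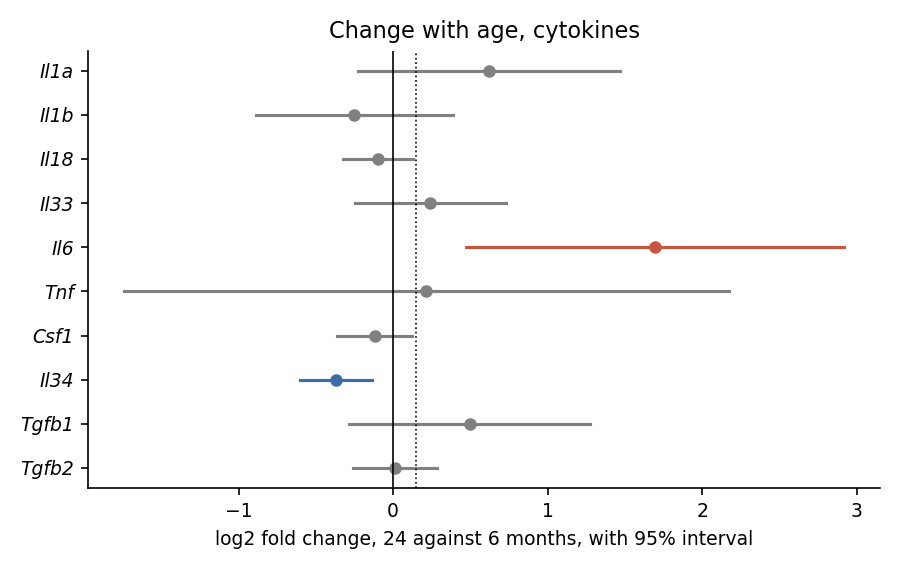
Log2 fold change of each cytokine between 24 and 6 months with its 95% interval from edgeR's quasi-likelihood fit (3 mice per age), red for higher and blue for lower at 10% FDR and grey otherwise. The dotted line marks the median of all genes tested, 0.15, and the intervals of Il6 and Il34 leave out 0.

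In the interleukin-1 family, no member of 4 passed 10% FDR in either direction. Il18 was at 75.3, 76.8 and 75.8 TPM at 6 months and 73.9, 75.8 and 80.5 TPM at 24 months. The TPM values overlap, and the young mice lay close together (SD 0.741 TPM, n = 3). The log2 fold change was -0.10 ± 0.10 (SE) with a 95% interval from -0.32 to 0.13 (edgeR's quasi-likelihood test, adjusted p = 0.527), and its sign depended on the scaling (0.09 with library totals).

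Il33, an alarmin known from oligodendrocytes and astrocytes of the adult brain, was at 109, 134 and 99.8 TPM at 6 months and at 95.6, 148 and 194 TPM at 24 months. The old mice spread more widely than the young, with mouse 2 below and mice 4 and 5 above every young mouse. The log2 fold change was 0.24 ± 0.22 (SE), with an interval from -0.25 to 0.73 and an adjusted p of 0.472 in edgeR's quasi-likelihood test. Without mouse 5 it was -0.02, and without mouse 2 it was 0.48, so its direction depended on mouse 5.

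The level of Il33 was set beside that of oligodendrocyte markers (Mog, Mag, Mobp, Cldn11 and Cnp). In log2 CPM, Il33 was at 6.50, 6.77 and 6.35 at 6 months and 6.18, 6.81 and 7.21 at 24 months. The mean of the 5 markers was 6.47, 6.78 and 6.14 at 6 months and 5.26, 6.43 and 6.79 at 24 months. Mouse 2 was lowest and mouse 5 highest in both. This order was not particular to oligodendrocyte markers. In CPM the endothelial markers Pecam1, Flt1 and Cdh5 were also lowest in mouse 2 and highest in mouse 5. The endothelial markers Cldn5 and Ly6c1 were highest in mouse 17. Of the astrocyte markers, Aqp4 and Gja1 were lowest in mouse 2, and none was highest in mouse 5. Relative to the markers within each library, Il33 was at 0.02, -0.01 and 0.22 on the log2 scale at 6 months and at 0.92, 0.38 and 0.42 at 24 months. On this scale each old mouse lay above each young mouse, and the mean difference was 0.495 (two-sided exact permutation test, p = 0.1, n = 3 per age), which is the smallest p that 3 against 3 can give. Without mouse 2 the difference was 0.32. None of the 5 markers passed 10% FDR, and all 5 had fitted values below 0, from -0.43 to -0.10. The part of cell composition in the level of Il33 was not tested.

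**Figure D3:**
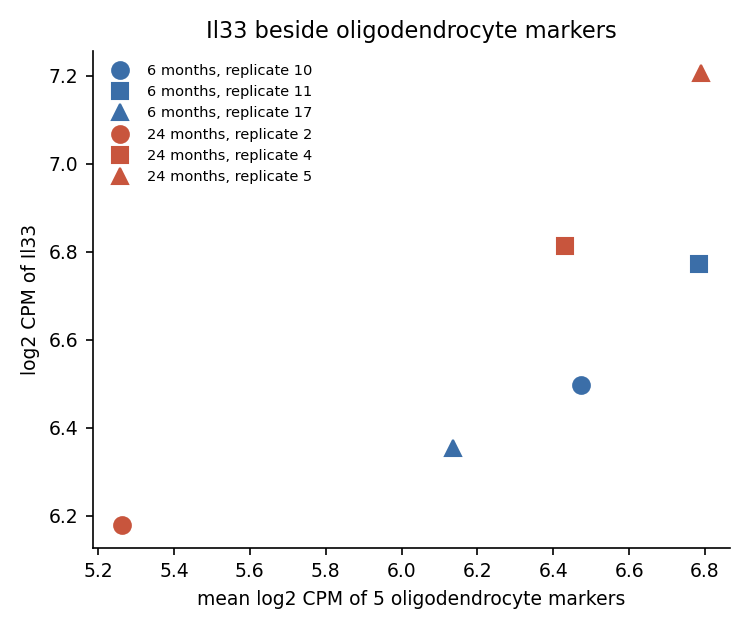
Log2 CPM of Il33 (vertical) against the mean log2 CPM of 5 oligodendrocyte markers (horizontal) in the 6 libraries, with 6 months in blue and 24 months in red. Mouse 2 is at the lower left at 6.18 and mouse 5 at the upper right at 7.21, and mice 4 and 5 lie above mice 10 and 11, which have like marker levels.

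Il1a and Il1b, the neighbouring genes of both classical interleukin-1 ligands on chromosome 2, were read at a low depth of at most 37 counts. Il1a was counted 19, 12 and 22 times at 6 months and 15, 33 and 37 times at 24 months, and the ages overlapped because mouse 2 lay among the young mice. The log2 fold change of Il1a was 0.62 ± 0.38 (SE, interval from -0.23 to 1.47, adjusted p = 0.286 by edgeR's quasi-likelihood test). Il1b was counted 17, 17 and 18 times at 6 months and 14, 17 and 14 times at 24 months. Il1b had a log2 fold change of -0.25 ± 0.28 (SE, interval from -0.89 to 0.39, adjusted p = 0.571 in the same test). Il1b was at 13.4, 11 and 11.9 times the sensory receptor level at 6 months and 2.69, 3.65 and 4.13 times at 24 months. For Il1a these ratios were 14.5, 7.5 and 14 at 6 months and 2.8, 6.8 and 10.5 at 24 months. The part of the sensory receptor level in these counts was not tested. Il1a shares 222 of its exonic bases (11.2%) with Gm14023 on the opposite strand, and the methods name no strand option among the settings of featureCounts changed from its defaults, so reads of both genes cannot be told apart there.

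Il6 was the member with the largest fitted change. Its counts were 2, 7 and 8 at 6 months and 31, 14 and 12 at 24 months. All 3 old mice lay above all 3 young mice, and mouse 2 had more than the other two old mice together. Normalised expression rose from 0.171 ± 0.0939 to 0.571 ± 0.334 CPM (SD, n = 3). The log2 fold change was 1.70 ± 0.55 (SE), with an adjusted p of 0.0825 in edgeR's quasi-likelihood test. The summed counts of 17 and 57 gave a ratio per total of 3.71 with an exact 95% interval from 2.13 to 6.81, which covers counting error only. Without mouse 2 the log2 fold change was 1.13 and the adjusted p 0.221, and the call was also lost without mouse 4, 10, 11 or 17 (adjusted p from 0.113 to 0.199 in the same test), at log2 fold changes from 1.33 to 2.02.

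The level of Il6 was low enough that the sensory receptor genes are given beside it. A gene of the exonic length of Il6 at the sensory receptor level would have had 1.61, 1.97 and 1.93 counts at 6 months and 6.62, 5.94 and 4.32 counts at 24 months. Il6 lay above these counts in every library, by 1.24, 3.56 and 4.14 times at 6 months and by 4.68, 2.36 and 2.78 times at 24 months. These ratios overlapped between the ages. Markers of other immune cells are given beside Il6 as well. Of 5 markers of border macrophages and monocytes, the 2 of monocytes passed 10% FDR upward, beside 10.0% of all genes. They were Ccr2 (log2 fold change 1.16, adjusted p = 0.0615 by edgeR's quasi-likelihood test) and Ly6c2 (at most 7 counts). The 3 of border macrophages did not pass (Mrc1 -0.10, Cd163 0.49 and Lyve1 0.01). Of 4 markers of B and T cells 1 passed upward (Ms4a1), beside 10.0% of all genes. All 4 lay higher without overlap, beside 20.0% of all genes. Cd3d was at 0.0165, 0.0151 and 0.0316 CPM per exonic kilobase at 6 months and 0.112, 0.0511 and 0.0672 at 24 months. This was near the sensory receptor level of the same libraries. Of 4 neutrophil markers 3 could be tested and 0 passed, 0 of them at an unadjusted p under 0.05. In mouse 2, the library with the most Il6 counts, the neutrophil sum was lowest (0.305 CPM) and the B and T cell sum highest (1.695 CPM). The part of the marker levels and of the sensory receptor level in that of Il6 was not tested.

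Tnf was at the edge of detection, counted 1, 3 and 1 times in the young mice and 4, 1 and 1 times in the old. In 5 of 6 libraries it was at or under 3 counts and the ages overlapped. Its log2 fold change had an interval from -1.74 to 2.17 and an adjusted p of 0.887 by edgeR's quasi-likelihood test, and the ratio of summed counts, 5 and 6, was 1.33 with an exact 95% counting interval from 0.338 to 5.50. A change of Tnf was therefore not detectable at this depth.

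**Figure D4:**
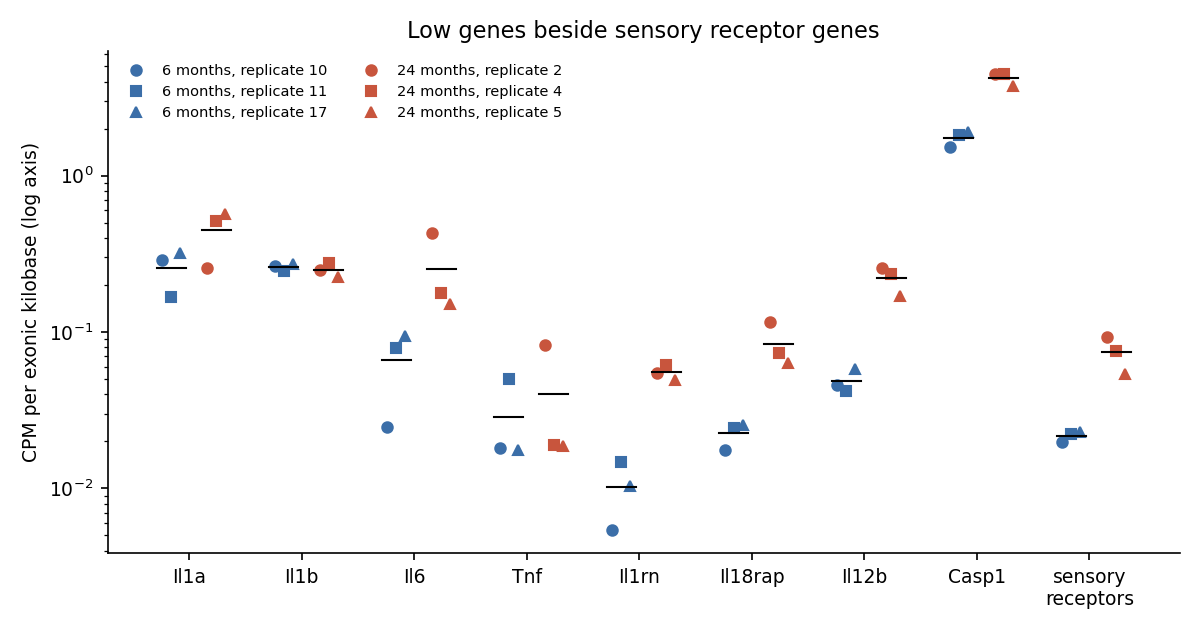
CPM per exonic kilobase on a log axis for 8 genes and for 2065 sensory receptor genes summed, in each of the 6 libraries (6 months blue, 24 months red, bars at means of 3 mice). The sensory receptor level is higher in all 3 old mice, Il1rn lies below it in each library, and Casp1 lies above 1 CPM per kilobase throughout.

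Among the ligands of Csf1r, Il34 fell with age and Csf1 did not pass the test. Il34 was at 102, 92.2 and 102 TPM at 6 months and at 89.4, 84.3 and 74.7 TPM at 24 months. Every old mouse lay below every young mouse. In normalised CPM it dropped from 55.1 ± 3.47 to 42.6 ± 3.81 (SD, n = 3), a 0.774-fold level, with a log2 fold change of -0.37 ± 0.10 (SE, interval from -0.60 to -0.14) and an adjusted p of 0.0651 in edgeR's quasi-likelihood test. When only library totals were used for scaling, the log2 fold change was -0.17 and the adjusted p 0.316. The call of Il34 was lost when mouse 2, 4, 10, 11 or 17 was left out (adjusted p from 0.1096 to 0.2327, log2 fold change from -0.42 to -0.34). Csf1 was at 16.8, 20.0 and 17.8 TPM at 6 months and at 17.0, 18.7 and 18.6 TPM at 24 months, the old mice lying within the range of the young. Its log2 fold change was -0.12 ± 0.11 (SE, interval from -0.36 to 0.12, adjusted p = 0.468 in the same test) with TMM scaling and 0.07 with library totals.

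Within each library, where the scaling between libraries plays no part, Il34 was at 6.07, 4.61 and 5.75 times the TPM of Csf1 at 6 months and at 5.25, 4.50 and 4.02 times at 24 months. The ages overlapped because of mouse 11, whose ratio was low among the young. The mean log2 ratio differed by -0.25 (two-sided exact permutation test, p = 0.2, n = 3 per age, smallest possible p 0.1). With TMM scaling the fitted changes of neuron markers were downward as well. Their sum with library totals overlapped between the ages, at 8689, 7865 and 7604 CPM at 6 months and 6584, 7373 and 8065 CPM at 24 months. Syt1, a synaptic vesicle protein, and Tubb3, a neuronal tubulin, passed 10% FDR downward among the 6 tested, beside 8.33% of all genes. All 6 had fitted values below 0 (median log2 fold change -0.33). Relative to their mean log2 CPM, Il34 was at -3.65, -3.73 and -3.54 at 6 months and at -3.48, -3.70 and -4.02 at 24 months. The ages overlapped, with a difference of -0.09 (two-sided exact permutation test, p = 0.8, n = 3 per age), which turned to 0.05 without mouse 5.

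Csf1r, the receptor of both ligands, passed the test in the same direction as Il34. It was at 42.2, 45.2 and 43.1 TPM at 6 months and at 35.5, 35.0 and 40.8 TPM at 24 months, without overlap. The log2 fold change was -0.34 ± 0.10 (SE, adjusted p = 0.0646 by edgeR's quasi-likelihood test), and -0.15 with library totals (adjusted p = 0.292). This call, too, was lost without mouse 2, 4, 10, 11 or 17 (adjusted p from 0.112 to 0.300), at log2 fold changes from -0.36 to -0.26. Of its exonic bases 15.1% lie in an exon of Hmgxb3 on the opposite strand, whose reads cannot be told apart there. By contrast, none of the 10 microglia markers passed downward, beside 8.33% of all genes. Of them 1, Tmem119, passed upward (log2 fold change 0.34, adjusted p = 0.0683 in the same test), beside 10.0% of all genes. The list median was 0.17.

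Neither transforming growth factor passed 10% FDR. Tgfb2 was at 8.49, 9.91 and 9.66 TPM at 6 months and at 9.14, 10.8 and 10.6 TPM at 24 months, with overlap. For Tgfb2 the log2 fold change was 0.01 ± 0.12 (SE, interval from -0.26 to 0.28, adjusted p = 0.957 by edgeR's quasi-likelihood test). Tgfb1 varied more among the young mice, at 0.629, 1.02 and 1.94 TPM, than among the old, at 2.21, 1.79 and 1.49 TPM, and mouse 17 lay among the old mice. Its log2 fold change was 0.50 ± 0.35 (SE, interval from -0.28 to 1.28, adjusted p = 0.355 in the same test), and without mouse 17 it was 1.03 with an adjusted p of 0.0986, past the threshold. Tgfb2 exceeded Tgfb1 in TPM by 13.5, 9.75 and 4.98 times at 6 months and by 4.13, 6.06 and 7.16 times at 24 months, and the mean log2 ratio differed by -0.62 (two-sided exact permutation test, p = 0.3, n = 3 per age). Relative to the mean log2 CPM of the microglia markers, Tgfb1 was at -5.05, -4.40 and -3.56 at 6 months and at -3.62, -3.76 and -4.13 at 24 months, a difference of 0.50 (two-sided exact permutation test, p = 0.4, n = 3 per age).

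The pathway around these cytokines was described with 6 lists of 92 genes, of which 85 could be tested. At 10% FDR 6 of them were higher and 7 lower, 13 of 85 against 18.4% of all genes. The counts of each list below stand beside 10.0% of all genes higher and 8.33% lower. Leaving out mouse 10, 11 or 4 left 0 of them at 10% FDR (16, 22 and 14 at an unadjusted p under 0.05), leaving out mouse 2 or 17 left 2 and 7, and leaving out mouse 5 gave 20. The higher genes were Casp1 and 5 genes of at most 26 counts in any library, Casp4, Il1rn, Il18rap, Il12b and Smad6. The lower genes had at least 163 counts in every library: the receptor Csf1r, the kinases Jak1, Ikbkb and Chuk, the signal carrier Smad3, and the NF-kappaB inhibitors Nfkbia and Tnfaip3.

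Of 16 genes that process or release these cytokines, 2 were higher, 0 were lower and 14 did not pass (median log2 fold change 0.18). Casp1, the protease that cuts the precursors of Il1b and Il18, had the smallest p of all the pathway genes. It was counted 77, 99 and 100 times at 6 months and 198, 218 and 183 times at 24 months, with a wide gap between the ages. Normalised expression rose from 2.81 ± 0.283 to 5.93 ± 0.486 CPM (SD, n = 3), a 2.11-fold level, with a log2 fold change of 1.08 ± 0.16 (SE, interval from 0.73 to 1.43) and an adjusted p of 0.0499 by edgeR's quasi-likelihood test. The adjusted p was 0.150, 0.145 and 0.182 without mouse 10, 11 and 4, with log2 fold changes of 1.00, 1.13 and 1.07. With all mice it was 2.9e-05 by edgeR's likelihood ratio test and 3.7e-05 by the Wald test of DESeq2. Casp1 was at 78, 82 and 84 times the sensory receptor level at 6 months and at 48, 60 and 69 times at 24 months. Its neighbour on chromosome 9, Casp4, which senses bacterial lipopolysaccharide inside the cell, was counted 11, 9 and 11 times at 6 months and 20, 24 and 19 times at 24 months. The log2 fold change of Casp4 was 0.97 ± 0.31 (SE, adjusted p = 0.0791 in the same test). Its level was 4.47, 2.99 and 3.72 times that of the sensory receptor genes at 6 months. At 24 months it was 1.98, 2.645 and 2.88 times that level, below every young mouse. Nlrp3, the inflammasome sensor, had a log2 fold change of 0.54 with an interval from -0.46 to 1.54 (adjusted p = 0.430 in the same test).

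Among 13 receptors 1 was higher, 1 lower (Csf1r) and 11 did not pass, with a median log2 fold change of -0.00. Il18rap, the accessory chain of the Il18 receptor, was counted 4, 6 and 6 times at 6 months and 23, 16 and 14 times at 24 months, without overlap. Its log2 fold change was 1.67 ± 0.40 (SE, adjusted p = 0.0552 by edgeR's quasi-likelihood test), but its level was only 0.893 to 1.25 times that of the sensory receptor genes in every library. Il1rl1, the receptor of Il33, was counted 10, 14 and 13 times at 6 months and 35, 24 and 17 times at 24 months, and just missed the threshold (log2 fold change 1.00, adjusted p = 0.1003 in the same test), which it passed in 5 of 13 alternatives. Its level was 2.19, 2.51 and 2.37 times that of the sensory receptor genes at 6 months. At 24 months it was 1.86, 1.42 and 1.39 times that level, below every young mouse. The receptors of Il1a and Il1b (Il1r1, log2 fold change -0.00), of Il6 (Il6ra, -0.19, and the shared chain Il6st, -0.26), of Tnf (Tnfrsf1a, 0.24, and Tnfrsf1b, 0.06) and of the TGF-beta ligands (Tgfbr1, -0.11, and Tgfbr2, 0.10) did not pass, nor did the shared chain Il1rap (-0.28).

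Of 4 antagonists and decoy receptors 1 was higher and 3 did not pass. Il1rn, the soluble antagonist of the interleukin-1 receptor, was counted 1, 3 and 2 times at 6 months and 9, 11 and 9 times at 24 months. The ages did not overlap, and the ratio of the summed counts, 6 and 29, was 5.35 with an exact 95% counting interval from 2.18 to 15.8 (adjusted p = 0.0552 by edgeR's quasi-likelihood test). Il1rn lay below the sensory receptor level in every library, at 0.272 to 0.669 times at 6 months and 0.596 to 0.914 times at 24 months. The part of the sensory receptor level in the changes of Casp4, Il1rn, Il18rap, Il1rl1, Il12b and Smad6 was not tested. Il18bp, the secreted binder of Il18, had a log2 fold change of -0.10 with an interval from -0.49 to 0.28.

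Of 20 signal transducers 4 fell, 0 rose and 16 did not pass, beside 8.33% of all genes lower and 18.4% called in either direction (median log2 fold change -0.18, beside 0.15 over all genes). Jak1, the kinase on the Il6 receptor complex, dropped from 314 ± 18.7 to 228 ± 29.7 CPM (SD, n = 3; log2 fold change -0.46, adjusted p = 0.0552 by edgeR's quasi-likelihood test). Ikbkb, a kinase that activates NF-kappaB, had a log2 fold change of -0.33 (adjusted p = 0.0624), and Smad3, which carries the TGF-beta signal to the nucleus, of -0.35 (adjusted p = 0.0570 in the same test). For Jak1, Ikbkb and Smad3 the ages did not overlap, whereas for Chuk, the fourth to fall (-0.46, adjusted p = 0.0930), mouse 5 lay among the young mice. Under scaling by library totals Jak1, Ikbkb and Smad3 did not pass, at log2 fold changes of -0.27, -0.14 and -0.16, and the median of all genes then lay 0.19 higher. The median over all genes also depended on the filter for low genes. With a mean of at least 1 CPM it was 0.01 in place of 0.15. Jak1, Ikbkb and Smad3 were then at -0.31, -0.17 and -0.19 and did not pass.

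**Figure D5:**
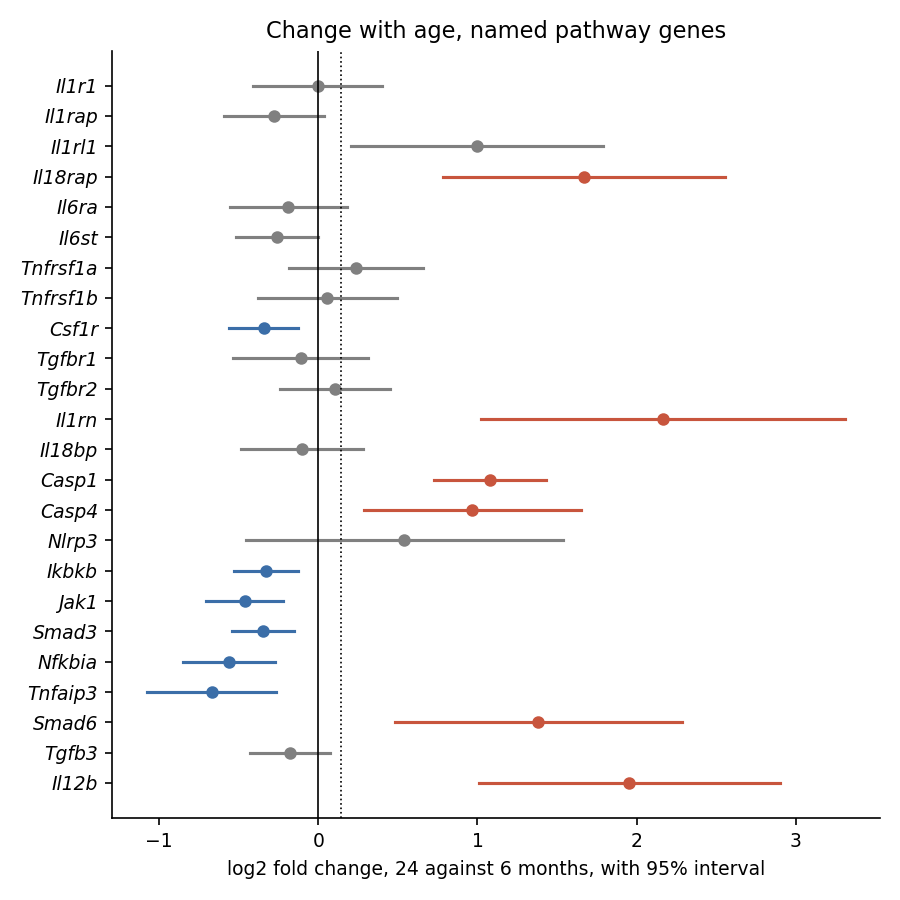
Log2 fold change between 24 and 6 months with its 95% interval for 24 named pathway genes from edgeR's quasi-likelihood fit (3 mice per age), red for higher and blue for lower at 10% FDR and grey otherwise, with a dotted line at the median of all genes tested. Casp1 at 1.08 has the narrowest interval among the higher genes, and the lower genes lie between -0.67 and -0.33.

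Of 10 feedback and target genes of these pathways 1 was higher, 2 were lower and 7 did not pass. Nfkbia and Tnfaip3 are both induced by NF-kappaB and in turn restrain it. Nfkbia was at 20.5, 23.1 and 19.1 CPM at 6 months and at 13.2, 13.2 and 16.1 CPM at 24 months, a log2 fold change of -0.56 ± 0.13 (SE, adjusted p = 0.0547 by edgeR's quasi-likelihood test). Tnfaip3 was at 10.1, 9.06 and 9.40 CPM at 6 months and at 7.67, 5.46 and 4.79 CPM at 24 months, a log2 fold change of -0.67 ± 0.18 (SE, adjusted p = 0.0619 in the same test). The call of Tnfaip3 was lost with library totals (adjusted p = 0.143 in the same test), as it was with filterByExpr and with a mean of at least 1 CPM (0.149 and 0.248). The adjusted p of Nfkbia was 0.0998 with library totals, and its call was lost with a mean of at least 1 CPM (0.178). It was also lost without mouse 10, 11, 2 or 4 (adjusted p from 0.113 to 0.205 in the same test). The call of Tnfaip3 was lost without mouse 10, 11, 17 or 4 (0.106 to 0.217). Neither gene overlapped between the ages. Smad6, an inhibitor of signals of the TGF-beta superfamily, was counted 10, 5 and 7 times at 6 months and 20, 26 and 14 times at 24 months (log2 fold change 1.38, adjusted p = 0.0686 in the same test), at 1.93 to 4.70 times the sensory receptor level.

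Of 29 other cytokine genes 22 could be tested, of which 1 was higher, 0 were lower and 21 did not pass, and 7 had too few counts. Il12b, the shared chain of Il12 and Il23, was counted 3, 3 and 4 times at 6 months and 15, 15 and 11 times at 24 months (log2 fold change 1.95 ± 0.42 SE, adjusted p = 0.0522 by edgeR's quasi-likelihood test). It was at 2.30, 1.88 and 2.55 times the sensory receptor level at 6 months and 2.80, 3.12 and 3.14 times at 24 months. Tgfb3, the other ligand of the TGF-beta receptors, was at 21.4, 22.7 and 23.9 TPM at 6 months and at 20.6, 24.0 and 20.5 TPM at 24 months, a higher level than that of Tgfb2 in every library. It had a log2 fold change of -0.18 with an interval from -0.43 to 0.08.

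For the 5 members with at least 100 counts in every library, the genes of most similar pattern were taken by the root mean square difference of centred log2 CPM over the 6 libraries among 12218 other genes. They were Slc48a1 for Il18 (0.02, beside a median of 0.15 over all genes compared), Evi2a and Arsg for Il33 (0.09 and 0.09, median 0.39), Brd3os and Ebp for Il34 (0.03 and 0.03, median 0.20), Nkx2-2 and Pink1 for Tgfb2 (0.02 and 0.03, median 0.20), and Rela and Kmt2e for Csf1 (0.01 and 0.03, median 0.17). Likeness over 6 libraries is a description of these samples.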

How the data were processed

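RNA-seq of cortex was analysed for 3 mice of 6 months and 3 of 24 months. The authors sequenced single-end reads of 75 bases from a low input kit, trimmed them with Trim Galore 0.6.4, mapped them to GRCm38 with STAR 2.7.3a and counted them on exons with featureCounts (Subread 2.0.0). They deposited for each mouse a count per gene and TPM values, which scale counts by exonic length and library. The methods state fractional counting of multi-mapped reads, but the deposited counts were whole.

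Counts were compared with edgeR 4.0.16 (TMM scaling, a minimum of 10 counts per gene summed over 6 libraries, quasi-likelihood test, no covariates). Genes were called at 10% FDR after Benjamini-Hochberg adjustment over all genes tested, because this test called none at the 1% FDR of the study. The paper itself reports differentially expressed genes at 1% FDR. CPM are normalised by TMM, except CPM per exonic kilobase and summed CPM of gene lists, which use library totals. The step was also run on simulated counts in which only genes of a mean above 1 CPM were changed. That run gives no check for changes of lower genes. Ratios were compared by exact permutation tests. Log2 CPM carry a prior count of 2. Alternatives were DESeq2 1.42.0, other scalings, tests and filters, and each mouse left out. Exonic lengths came from GENCODE vM21 of the same build. Members and gene lists were chosen with earlier results of these data known. All members, 15 fixed pathway genes and up to 12 called list genes of lowest p were to be named. Intervals from counts cover counting error only. P-values of the quasi-likelihood test set the age difference against the spread between mice, estimated with information shared over genes. Those of the permutation tests rank the observed split of the mice among all splits. From the planned lists, 1 oligodendrocyte marker and 1 marker of B and T cells were left out of all marker values, and 1 gene of similar pattern to Il18 is not reported here.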

Additional observations from a re-analysis of the deposited data

How the results depend on the processing

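Of the alternatives tried, 4 gave the same 2 members at 10% FDR besides the reported fit (DESeq2 size factors, the likelihood ratio and exact tests of edgeR, and the Wald test of DESeq2). The number was 1 with library totals (Il6) and with a minimum of 1 count (Il6), 0 with filterByExpr and 0 with a mean of at least 1 CPM (which kept 6 members and left out Il6), and it ranged from 0 to 2 when each mouse was left out, where Il34 and Il6 stayed without mouse 5, the call passed to Tgfb1 without mouse 17, and none was left without mouse 10, 11, 2 or 4. The pathway genes, 13 as reported, were 7 with filterByExpr, 8 with a minimum of 1 count and 1 with a mean of at least 1 CPM (fewer of them were tested with the last), and ranged from 0 (without mouse 10, 11 or 4) to 20 (without mouse 5), with 2 without mouse 2 and 7 without mouse 17. By direction the 6 higher and 7 lower became 11 and 1 with library totals and 6 and 1 with filterByExpr. Over all genes the 6041 calls became 4436 with library totals, 5530 with DESeq2 size factors, 7498 with the likelihood ratio test, 3048 with DESeq2 (5745 adjusted p-values not given), 1538 with filterByExpr, 4014 with a minimum of 1 count and 66 with a mean of at least 1 CPM, and 0 to 7997 when a mouse was left out (0 without mouse 10 or 4, 1 without mouse 11). The cause was not tested.

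Members whose ages did not overlap, 4 as reported, were 2 with DESeq2 size factors, 2 with library totals, 2 with TPM and 2 with a mean of at least 1 CPM, which left Il6 and Il1b untested. The adjusted p of Il6 passed 10% in 7 of 13 alternatives and that of Il34 in 5 of 14, and Casp1 passed in 11 of 14, with a log2 fold change of 1.00 to 1.15 when a mouse was left out. Ratios to Csf1, Tgfb1 and marker genes kept their direction with counts, an added 1 TPM, marker medians or log2(TPM + 1). Tgfb2 to Tgfb1 moved from -0.62 to -0.29 with 1 TPM added, and Tgfb1 to microglia markers from 0.50 to 0.19 with log2(TPM + 1). When a mouse was left out, the ratios ranged from -0.37 to -0.16 (Il34 to Csf1), from -1.02 to -0.30 (Tgfb2 to Tgfb1), from 0.32 to 0.59 (Il33 to oligodendrocyte markers), from 0.14 to 0.89 (Tgfb1 to microglia markers) and from -0.219 to 0.051 (Il34 to neuron markers, reversed without mouse 5).

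Signs of log2 fold changes that never passed the threshold turned as follows. With library totals Il18 was at 0.092, Csf1 0.069, Tgfbr1 0.076, Il18bp 0.087, Tgfb3 0.016 and Il1r1 0.185, with filterByExpr Il18 was at 0.014, Il18bp 0.010 and Il1r1 0.107, and with a mean of at least 1 CPM Il18 was at 0.056, Csf1 0.034, Tgfbr1 0.038, Il18bp 0.051 and Il1r1 0.148. Il1r1 was also at 0.002 with DESeq2 size factors and its Wald test and at 0.033 with a minimum of 1 count. When a mouse was left out the ranges were -0.029 to 0.577 for Tnf, -0.016 to 0.480 for Il33, -0.047 to 0.096 for Tgfb2, -0.112 to 0.121 for Il1r1, -0.064 to 0.173 for Tnfrsf1b, -0.325 to 0.096 for Tgfbr1 and -0.024 to 0.262 for Tgfbr2. No paired analysis was possible because the mice of the 2 ages share no replicate numbers. The counts of Tnf and Il1rn at 6 months, at most 3 per library, limit what can be seen of them.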
